A study of Mus musculus with 8 samples.

Results

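The genes described here are the 6 subunits of protein kinase A (PKA), the cAMP-responsive transcription factors Creb1 and Crem, and the beta-arrestins Arrb1 and Arrb2. They were taken as the rows of the deposited count table whose gene name is one of these 10 symbols. All 10 were found among the 54532 genes of the table, each in 1 row. Cortical RNA was sequenced from 4 PS19 mice and 4 Adrb1+/m;PS19 mice, 1 library per mouse, to ask how gene expression differs when PS19 mice also carry a mutant beta1-adrenergic receptor. Mice of both genotypes were 8 mo old, of strain C57BL/6 and singly housed, and both carried the PS19 transgene, which expresses human mutant tau from the mouse prion protein promoter. The Adrb1+/m;PS19 mice carried in addition 1 knock-in copy of a missense mutation in Adrb1, made with CRISPR/Cas9. No mice without the transgene were part of the series, so the comparison is between mice that all carry it.

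The beta1-adrenergic receptor couples to the stimulatory G protein, which raises cAMP. In the absence of cAMP, a pair of regulatory subunits holds a pair of catalytic subunits of PKA inactive, and binding of cAMP frees the catalytic subunits to phosphorylate their targets, among them CREB in the nucleus. Beta-arrestins bind receptors that have been phosphorylated by receptor kinases, uncouple them from G proteins and carry them into the cell. CREB acts at the cAMP response element (CRE), a DNA motif found in front of many genes that respond to neuronal activity.

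The CRE in its full form, TGACGTCA, which reads the same on both strands, was searched in RefSeq promoter windows (GRCm38.p6, 250 bases before to 50 bases after each start). Of the 10 genes 7 were in the table of windows. Crem, Arrb1 and Arrb2 were not analysed. Prkar1a was the only one of the 7 with the motif, and the promoters of 4 textbook CREB target genes that were measured in the same mice held it too. These 5 sites are shown because they hold the motif that links Creb1 and Crem to the other genes by their textbook roles, 1 in a PKA subunit gene and 4 in target genes measured beside it. Each is given from 5′ to 3′ on the strand of the gene, with the CRE in capitals.

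Prkar1a, chr11:109650889-109650918, plus strand: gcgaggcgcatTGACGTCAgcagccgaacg
Pcsk1, chr13:75089768-75089797, plus strand: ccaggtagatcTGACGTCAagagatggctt
Scg2, chr1:79440076-79440105, minus strand: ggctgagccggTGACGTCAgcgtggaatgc
Sst, chr16:23890874-23890903, minus strand: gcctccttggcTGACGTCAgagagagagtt
Dusp1, chr17:26508597-26508626, minus strand: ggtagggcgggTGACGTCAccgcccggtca

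The motif lay 41 bases before a RefSeq start of Prkar1a, inside introns of 3 GENCODE transcripts of the gene that begin farther upstream. It lay 70 bases before the start of Pcsk1, outside any annotated transcript of that gene, and 135 bases before the start of Dusp1, in an intron of a longer transcript. In Scg2 and Sst it lay 60 and 40 bases before the RefSeq start, and the 30 bases printed overlap a UTR of 1 GENCODE transcript of each gene. A window with the full CRE was found for 2.03% of the 27025 genes in the table, for 1 of the 7 genes described here and for 4 of the 15 textbook targets in the table. The half-site TGACG, searched on both strands and contained in the full motif, was found for 23.05% of all genes and for 5 of the 7. A gene was counted if any of its windows matched, so these shares rise with the number of windows of a gene. Prkaca, Prkacb, Prkar1a, Prkar1b and Prkar2b had more than 1 window each. Over all 32851 windows, 1.79% held the full CRE and 20.81% the half-site. A match is a description of the letters and not of binding.

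The libraries held 14653222 to 21223754 counts, and the 10 genes had between 227 and 17554 counts in a mouse, so that all of them passed edgeR's filter on low counts. Levels are given as CPM, counts per 1000000 counts of a library, scaled with edgeR's normalization factors of 0.990 to 1.01. The tissue expressed the markers of cortical excitatory neurons, with a summed level of 3970 to 4416 CPM in PS19 and 3689 to 4178 CPM in Adrb1+/m;PS19 mice over 6 genes, none of which was at 0. Markers of striatal projection neurons, which are not a cell type of the cortex, were present at summed levels of 944 to 1885 CPM in PS19 and 974 to 2113 CPM in Adrb1+/m;PS19 mice, and all 8 of them were higher on average in the latter. Of the other marker lists, 4 of 6 inhibitory neuron, 5 of 6 astrocyte, 2 of 6 oligodendrocyte, 1 of 5 endothelial and 5 of 5 choroid plexus genes had higher means in Adrb1+/m;PS19 mice, and their summed levels overlapped between the genotypes. An unadjusted p under 0.05 was found for 3 of the 6 excitatory and 3 of the 6 inhibitory neuron markers and for none of the other lists in edgeR's test. In bulk tissue, fewer cells of a type and less RNA per cell cannot be told apart.

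None of the 10 genes differed between the genotypes by edgeR's quasi-likelihood test. The number with an unadjusted p-value under 0.05 was 0 of 10, beside 2.8% of the 17195 genes tested. After Benjamini-Hochberg adjustment over the whole table of tested genes it was 0 of 10, beside 0% of all genes, and the adjusted p of each of the 10 was 0.9996. DESeq2's Wald test and limma-voom likewise gave 0 of 10 at an unadjusted p under 0.05. The number whose CPM did not overlap between the genotypes was 0 of 10, beside 2.02% of all genes. Of the log2 fold changes (Adrb1+/m;PS19 vs. PS19) 3 were above 0 and 7 below, with a median of -0.03, where the median over all genes tested was 0.00046. The 95% intervals of the 10 genes lay between -21.1% and 18.2% of the PS19 level, so that changes beyond these bounds would have lain outside them. A p-value above the threshold does not show that a gene is expressed alike, and the intervals of the single genes are given with their values.

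**Figure D1:**
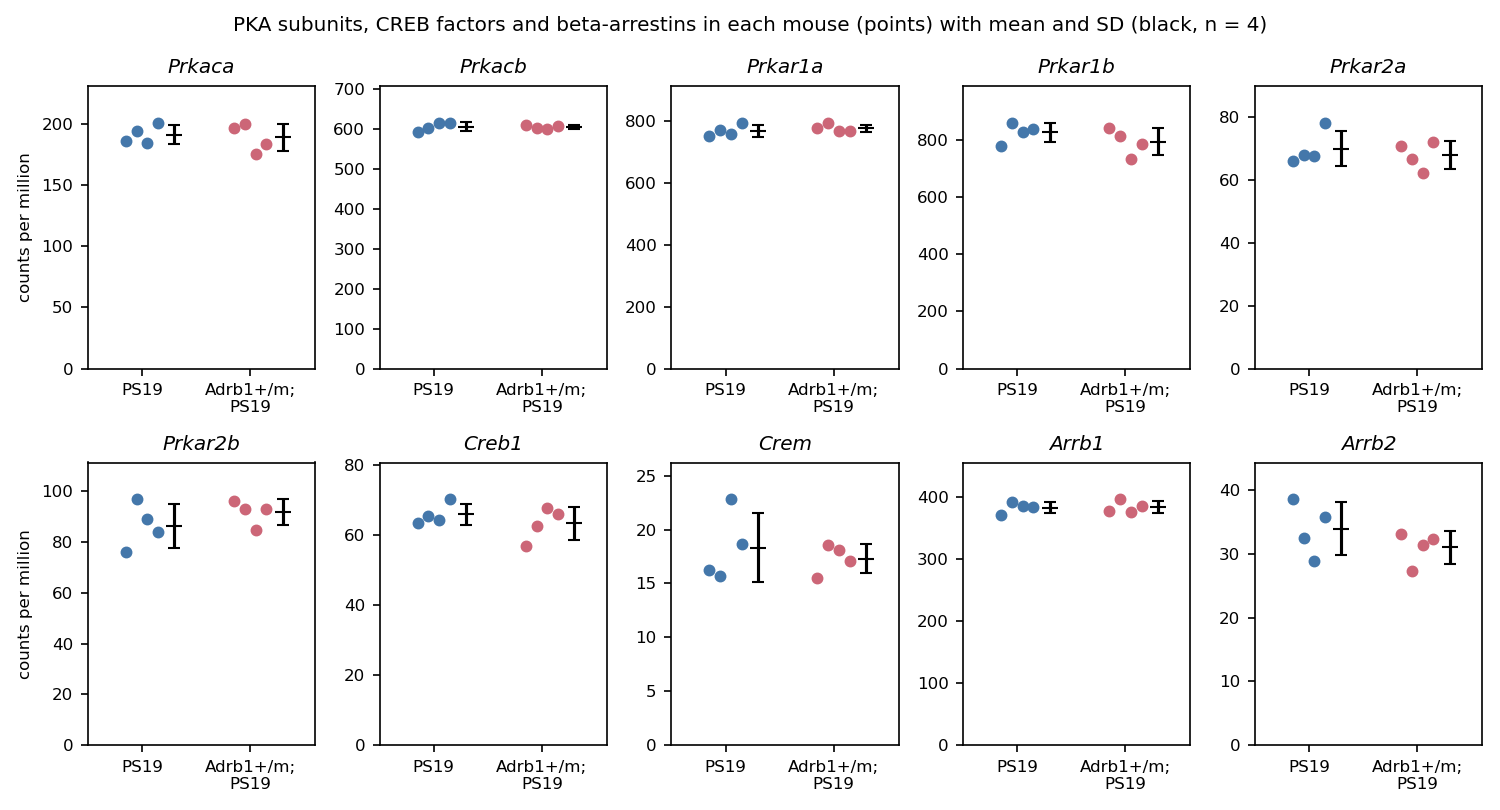
CPM of each of the 10 genes on an axis from 0, with 1 point per mouse (PS19 in blue, Adrb1+/m;PS19 in red) and, in black, the mean and SD of 4 mice. The points of the 2 genotypes overlap in all 10 panels, and those of Prkacb, between 590.5 and 614 CPM, lie closest together.

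The catalytic subunits carry the kinase activity. Prkaca (ENSMUSG00000005469, chromosome 8 of GRCm38, 83972993 to 83996443), which encodes the alpha subunit, had 187, 194, 184 and 201 CPM in the PS19 mice m677, m668, m665 and m659 and 197, 200.4, 176 and 184 CPM in the Adrb1+/m;PS19 mice m671, m661, m660 and m658. The highest mouse was a PS19 mouse and the lowest an Adrb1+/m;PS19 mouse, and the genotypes overlapped. The mean was 192 ± 7.69 (SD, n = 4) against 189 ± 11.4 CPM (SD, n = 4), a log2 fold change of -0.02 ± 0.06 (SE) and a 95% interval of -9.03% to 7.22%. Prkacb (ENSMUSG00000005034, chromosome 3, 146729574 to 146812990), which encodes the beta subunit and is abundant in brain, had 590.5, 601, 614 and 613 CPM in the PS19 mice and 609.8, 601, 598 and 606 CPM in the Adrb1+/m;PS19 mice, in the same order of mice. Its 8 values lay within 0.06 of each other on the log2 scale. The log2 fold change was -0.0021 ± 0.04 (SE), and the interval ran from -5.95% to 6.01%.

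The type I regulatory subunits give the largely soluble form of the holoenzyme. Prkar1a (ENSMUSG00000020612, chromosome 11, 109649405 to 109669656), the widely expressed one and the gene with the CRE shown above, had 749, 769.6, 757 and 793 CPM in the PS19 mice and 778, 792, 768 and 767 CPM in the Adrb1+/m;PS19 mice. PS19 mice held both the highest and the lowest value. Its log2 fold change was 0.02 ± 0.04 (SE), with an interval of -4.76% to 7.52%. Prkar1b (ENSMUSG00000025855, chromosome 5, 139017306 to 139150001), which is expressed mainly in neurons, had 779.9, 859.6, 829 and 837 CPM in the PS19 mice and 843, 814, 735 and 784 CPM in the Adrb1+/m;PS19 mice. The lowest value was that of Adrb1+/m;PS19 mouse m660, which also had the lowest summed level of the excitatory neuron markers, 3689 CPM, and the highest, that of PS19 mouse m668, went with the highest summed level, 4416 CPM. Mouse m671 did not follow this order, with 843 CPM of Prkar1b at a sum of 4014 CPM, while m661 had 814 CPM at 4178 CPM. The part of the neuron markers in the spread of Prkar1b was not tested. The mean of 826 ± 33.5 against 794 ± 46.1 CPM (SD, n = 4 each) was a log2 fold change of -0.06 ± 0.05 (SE) and an interval of -11.0% to 3.73%. A transcript without a coding sequence on the same strand, Gm15672, overlaps the start of Prkar1b and holds 7.79% of its stretches of 50 bases, and its own counts came to 0.174% of those of Prkar1b.

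The type II regulatory subunits are tethered to membranes and the cytoskeleton by A-kinase anchoring proteins, which is not a trait of type II alone. Prkar2a (ENSMUSG00000032601, chromosome 9, 108689314 to 108750436) had 66.0, 67.9, 67.4 and 78.1 CPM in the PS19 mice and 70.7, 66.6, 62.0 and 71.9 CPM in the Adrb1+/m;PS19 mice. PS19 mouse m659 stood above the other 7, which lay between 62.0 and 71.9 CPM. The log2 fold change was -0.04 ± 0.07 (SE), with an interval of -12.3% to 7.44%, and without m659 it was 0.014. Prkar2b (ENSMUSG00000002997, chromosome 12, 31958476 to 32061296), the neuronal and adipose form, had 76.2, 96.8, 89.1 and 83.8 CPM in the PS19 mice and 96.3, 93.2, 84.8 and 93.1 CPM in the Adrb1+/m;PS19 mice. PS19 mice again held the highest and the lowest value. It had the highest fold change of the 10 genes, a log2 fold change of 0.09 ± 0.07 (SE), an interval of -4.57% to 18.2% and an unadjusted p of 0.246 in edgeR's test. Without m677 that log2 fold change was 0.032, and without m668 it was 0.14, where its unadjusted p was 0.0578.

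Prkar2b is one of the genes that striatal projection neurons express strongly, and its values were set beside the striatal markers for that reason. The mice with the highest Prkar2b, m668 and m671, had the highest striatal sums, 1885 and 2113 CPM, and the mouse with the lowest, m677, had the lowest sum, 944 CPM. Mouse m661 did not follow this order, with 93.2 CPM of Prkar2b at a striatal sum of 974 CPM. The part of striatal tissue in the values of Prkar2b was not tested.

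Creb1 (ENSMUSG00000025958, chromosome 1, 64532645 to 64604548), the transcription factor that PKA phosphorylates, had 63.4, 65.5, 64.4 and 70.2 CPM in the PS19 mice and 56.7, 62.7, 67.7 and 66.0 CPM in the Adrb1+/m;PS19 mice. Mouse m671 was lowest and the other 3 Adrb1+/m;PS19 mice lay in or just below the PS19 range. The log2 fold change was -0.06 ± 0.06 (SE), with an interval of -12.7% to 5.76%. Crem (ENSMUSG00000063889, chromosome 18, 3266048 to 3337748), whose products include activators and the short inducible repressor ICER, had 16.2, 15.7, 22.8 and 18.6 CPM in the PS19 mice and 15.5, 18.6, 18.1 and 17.1 CPM in the Adrb1+/m;PS19 mice. PS19 mouse m665 alone was above 20 CPM. The log2 fold change of Crem was -0.09 ± 0.12 (SE), with the widest interval of the 10 genes, -21.1% to 12.2%, and without m665 it turned to 0.041. The count of a gene does not separate the activators from the repressor. A non-coding gene on the other strand, Gm6225, overlaps the start of Crem and had 4.42% as many counts, and since the sources used here do not state a strand setting, reads of the 2 cannot be told apart where they overlap.

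Among the beta-arrestins, Arrb1 (ENSMUSG00000018909, chromosome 7, 99535466 to 99606771) had 372, 392, 385 and 384 CPM in the PS19 mice and 378, 397, 376 and 385 CPM in the Adrb1+/m;PS19 mice. The means, 383 ± 8.41 and 384 ± 9.31 CPM (SD, n = 4 each), gave a log2 fold change of 0.003 ± 0.04 (SE) and an interval of -6.05% to 6.88%. Arrb2 (ENSMUSG00000060216, chromosome 11, 70432635 to 70440828) had 38.6, 32.6, 28.9 and 35.8 CPM in the PS19 mice and 33.2, 27.3, 31.4 and 32.3 CPM in the Adrb1+/m;PS19 mice. It had the smallest unadjusted p of the 10 genes, 0.191, with a log2 fold change of -0.13 ± 0.09 (SE) and an interval of -20.4% to 5.16%. All 4 Adrb1+/m;PS19 values lay below the 2 highest PS19 values, those of m677 and m659, while m668 and m665 lay within the range of the Adrb1+/m;PS19 mice. Without m665 the log2 fold change of Arrb2 was -0.20 with an unadjusted p of 0.0407 in edgeR's test, the one alternative in which any of the 10 genes passed 0.05. Over the 8 fits that each left out 1 mouse its p ran from 0.0407 to 0.536.

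Arrb2 is expressed in microglia as well as in neurons. The mice with the lowest Arrb2, m661 and m665, also had the lowest summed levels of 6 microglial markers, 248 and 252 CPM, while the others had 283 to 426 CPM. The microglial sum did not separate the genotypes, with 252 to 426 CPM in PS19 and 248 to 399 CPM in Adrb1+/m;PS19 mice, and 3 of its 6 genes were higher in the latter. Mouse m660 did not follow this order, with the third lowest Arrb2, 31.4 CPM, and the second highest microglial sum, 399 CPM. The part of the microglial markers in the values of Arrb2 was not tested.

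**Figure D2:**
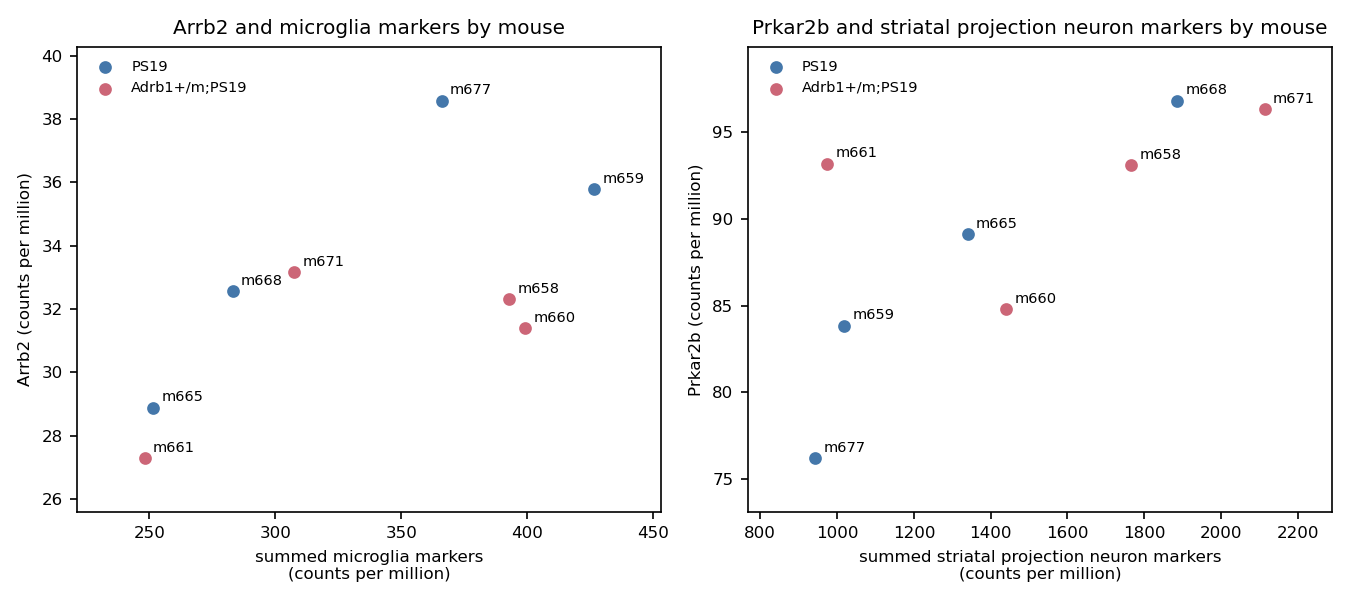
Left, CPM of Arrb2 against the summed CPM of 6 microglial markers, and right, CPM of Prkar2b against the summed CPM of 8 striatal projection neuron markers, with 1 labelled point per mouse (PS19 in blue, Adrb1+/m;PS19 in red). Mice m661 and m665 are lowest on both axes of the left panel, and m668 and m671 are highest on both axes of the right panel.

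To compare the 10 genes with each other, counts were divided by the deposited gene length and scaled to a total of 1000000 transcripts per library (TPM). Prkar1b was the highest at 768 ± 35.2 TPM (SD, n = 8 mice), followed by Prkar1a at 645 ± 13.9 TPM. The catalytic subunits came next, with 276 ± 12.0 TPM for Prkaca and 249 ± 4.27 TPM for Prkacb. Arrb1 had 124 ± 2.82 TPM and Prkar2b had 88.2 ± 6.61 TPM. Arrb2 and Prkar2a were close together at 41.3 ± 4.49 and 39.0 ± 2.67 TPM, and Creb1 and Crem were lowest at 17.0 ± 1.17 and 10.9 ± 1.53 TPM. Crem stood at or above 48.6% and Prkar1b at or above 99.4% of the 18268 protein-coding genes with counts.

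Of the 9 neighbours in this order, 8 differed in the same direction in 8 of 8 mice (2-sided exact permutation test within mice, p = 0.00781, the smallest that 8 mice allow, adjusted p = 0.00879). Arrb2 and Prkar2a did not differ beyond their spread, with Arrb2 higher in 6 of 8 mice (exact permutation p = 0.211). The order was set from the means of these 8 mice, so the p-values describe only how steadily it held between mice. The order was the same in both genotypes. It depends on the length used. With the deposited lengths, 2488 bases for Prkaca and 8772 for Prkacb, Prkaca was 1.11-fold higher, while with the longest protein-coding GENCODE transcript, 2276 and 4347 bases, the log2 difference of Prkaca over Prkacb was -0.73. The other 8 neighbours kept their order with that length. With no division by length, 7 of the 9 neighbours kept their order, since Prkaca then lay below Prkacb and Arrb2 below Prkar2a.

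**Figure D3:**
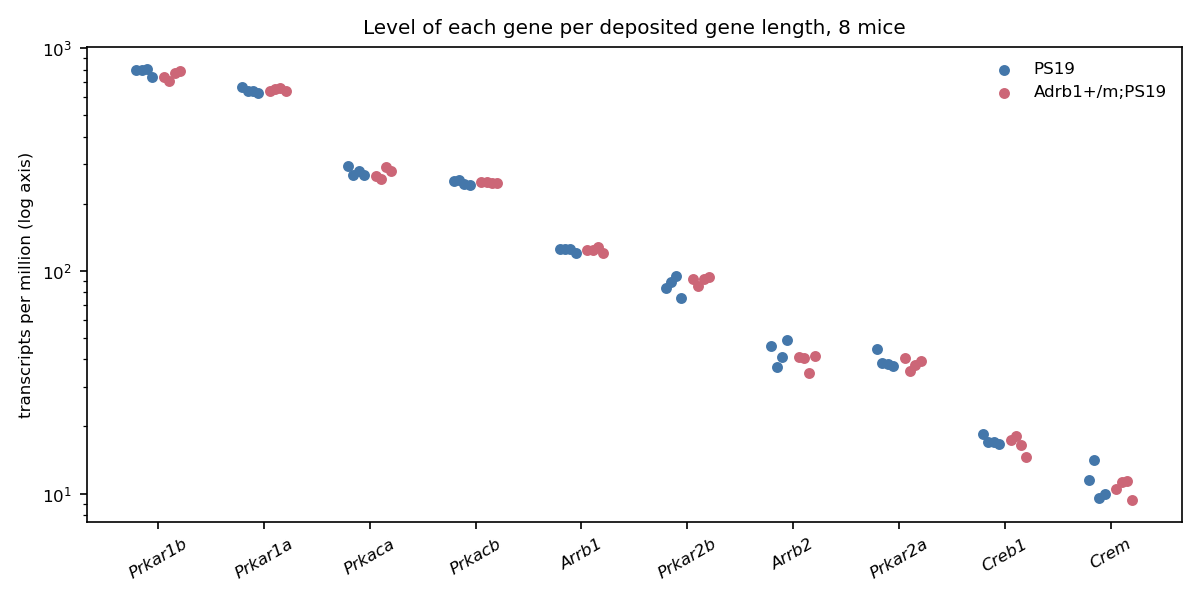
TPM of the 10 genes on a log axis, from the highest to the lowest mean, with 4 PS19 mice (blue) and 4 Adrb1+/m;PS19 mice (red) per gene. Type I regulatory subunits lie at 625 TPM or more in every mouse, and the points of Arrb2 and Prkar2a overlap.

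The make-up of the kinase at the RNA level was much alike in all 8 mice. On the TPM scale the type I genes supplied 91.7% of the regulatory transcripts, with 41.9% from Prkar1a and 49.8% from Prkar1b, and Prkar2a and Prkar2b supplied 2.53% and 5.72%. The type I share was 91.6% to 92.4% in PS19 and 91.2% to 91.8% in Adrb1+/m;PS19 mice. Regulatory transcripts outnumbered catalytic ones by 2.93-fold, with 2.88 to 3.01 in PS19 and 2.90 to 2.95 in Adrb1+/m;PS19 mice. Arrb1 supplied 75.1% of the transcripts of the beta-arrestins, with 71.0% to 77.3% and 74.4% to 78.7% in the 2 genotypes. The 2 genotypes overlapped in all of these shares. Like the order above, the shares and the 2.93-fold depend on the gene lengths, and only the deposited lengths were used for them.

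The ratio between paralogues is a comparison within a library that does not depend on its depth. None of the 5 ratios differed between the genotypes (2-sided exact permutation tests of 4 mice against 4, smallest possible p 0.0286, adjusted p over the 5 ratios 0.667 to 0.971), and all 5 overlapped. Prkar1a to Prkar1b came closest, at 0.847, 0.789, 0.805 and 0.836 in the PS19 mice and 0.814, 0.858, 0.922 and 0.863 in the Adrb1+/m;PS19 mice, a log2 difference of 0.08 with an exact permutation p of 0.143. Prkar2a to Prkar2b spread more among the PS19 mice, at 0.496, 0.402, 0.433 and 0.533, than among the Adrb1+/m;PS19 mice, at 0.420, 0.409, 0.419 and 0.442, with a log2 difference of -0.13 (exact permutation p = 0.286). The difference in spread was not tested. Arrb1 to Arrb2 was 2.45 to 3.40 in PS19 and 2.90 to 3.70 in Adrb1+/m;PS19 mice, and Crem to Creb1 was 0.558 to 0.825 and 0.604 to 0.691.

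Several of the 10 genes varied little between mice for their level. The SD of log2 CPM within a genotype was 0.02 for Prkacb, smaller than in all but 0.058% of the 17195 genes tested. Each SD was also ranked among the genes nearest in level, up to 1000 of them. For the abundant Prkacb, Prkar1a, Prkar1b and Arrb1 this set was smaller and held fewer genes above their level than below it. The SD of Prkacb was smaller than in all but 0.751% of its set. For Prkar1a the SD was 0.03, at the 2.45 percentile of its nearest genes, and for Arrb1 0.03, at the 3.99 percentile. Prkar1b, as abundant as Prkar1a, stood at the 49.3 percentile of its own nearest genes, and Prkaca, which had lower CPM than these 4, at the 49.8 percentile. At the other end were Arrb2, Crem and Prkar2b, at the 84.7, 82.8 and 81.1 percentile. The spread is given as a description without a test.

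**Figure D4:**
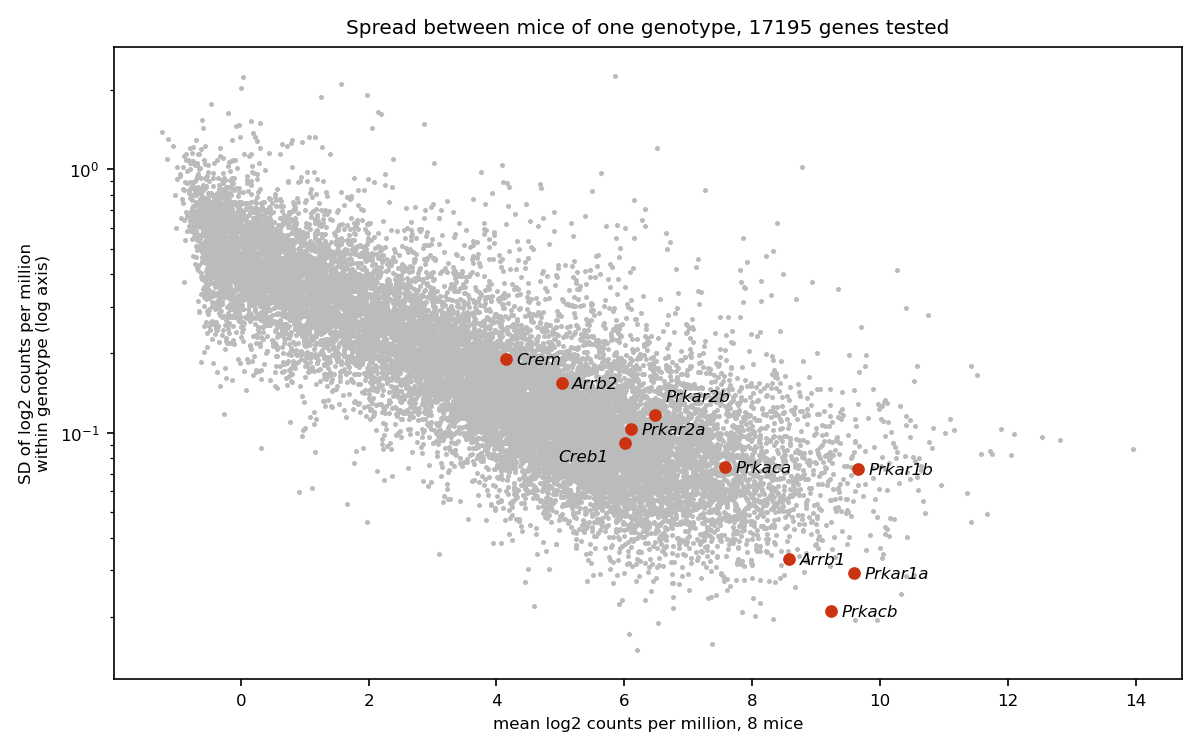
SD of log2 CPM between mice of one genotype, on a log axis, against the mean log2 CPM of 8 mice, for 17195 genes (grey) with the 10 genes in red. Prkacb, Prkar1a and Arrb1 lie along the lower edge of the genes of their level, and Crem, Arrb2 and Prkar2b lie above the middle.

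Across the 8 mice, the 10 genes form 45 pairs. Crem was set apart because the value of m665 left a gap of 0.524 of its range, and the other 36 pairs were correlated. Of these 28 had a positive Pearson's r, with a median of 0.302 and a range of -0.687 to 0.778. Prkaca and Prkar1b had the highest r, 0.778 (permutation p = 0.0213), with a Spearman's rho of 0.619 (permutation p = 0.115), and an r of 0.534 without the mice farthest from the median, m660 and m659. The lowest r, -0.687 (permutation p = 0.0563, Spearman's rho -0.643 with p = 0.0962), was that of Arrb1 and Arrb2, and it fell to -0.025 without m677 and m661, so it rests on those mice. No pair passed after adjustment over all 45 pairs, where the smallest adjusted permutation p of Pearson's r among the 36 was 0.639. With the genotype means removed, 33 of the 36 kept their sign and 25 were positive. The pairs share genes and are not independent, and the share of positive pairs among other genes was not computed.

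The extremes were spread over 7 of the 8 mice, all but m658. PS19 mouse m659 was highest for 4 of the 10 genes, Prkaca, Prkar1a, Prkar2a and Creb1. PS19 mouse m677 was lowest for 4, Prkacb, Prkar1a, Prkar2b and Arrb1, and at the same time highest for Arrb2. Adrb1+/m;PS19 mouse m660 was lowest for Prkaca, Prkar1b and Prkar2a. Mice m668 and m665 were each highest for 2 genes, m671 was lowest for 2, and m661 was highest for 1 and lowest for 1.

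The gene most like each of these genes was found by Pearson's r of log2 CPM over the 8 mice with the genotype means removed, among 17185 other genes, and is given with no p. For Prkar1b it was Dcaf7 (r = 0.996). Prkacb was most like Tmem30a (r = 0.986), Prkar1a most like Jak1 (r = 0.975), Prkar2a most like Lrrc47 (r = 0.953) and Prkar2b most like D17Wsu92e (r = 0.991). Creb1 went with Bnip2 (r = 0.978), Crem with Zscan22 (r = 0.988), Arrb1 with Fam168a (r = 0.977) and Arrb2 with Gm2a, a lysosomal activator protein (r = 0.985). With 8 mice and this many genes, high values are reached for any gene.

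The other genes of the pathway were described from 7 lists, of which 90 of 97 genes were tested. There were 2 genes with increased and 3 with decreased expression at an unadjusted p under 0.05, or 5 of 90, beside 2.8% of all genes, and none passed after adjustment over all genes. In 1 alternative Gnal did, as given with its values. Their median log2 fold change was -0.01. Since the lists were chosen with results of these data known, their counts are descriptions.

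The endogenous PKA inhibitors bind the free catalytic subunit. All 3 were tested and 0 passed, with a median log2 fold change of -0.09. Pkib, with the smallest p of 0.101, had 10.7 CPM in PS19 and 9.12 CPM in Adrb1+/m;PS19 mice. Of the 27 A-kinase anchoring proteins 22 were tested, and 0 passed in either direction. Their log2 fold changes lay between -0.10 and 0.12 with a median of -0.01, and Akap7 had the smallest p, 0.241. Among the other effectors of cAMP, 5 of 6 were tested and 0 passed, with Rapgef3, which encodes the exchange factor Epac1, at an unadjusted p of 0.215.

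Upstream of PKA, the receptor list held beta-adrenergic receptors and stimulatory G protein subunits, 5 genes in all. Adrb1 itself, the gene that carries the mutation, had 36.8 and 35.02 CPM in PS19 and Adrb1+/m;PS19 mice, a log2 fold change of -0.07 ± 0.09 (SE). These counts do not distinguish the mutant from the normal allele. Adrb3 was low, at 2.43 CPM in PS19 and 1.96 CPM in Adrb1+/m;PS19 mice, with a log2 fold change of -0.31. Gnas, the main stimulatory alpha subunit, had a log2 fold change of -0.0066. Gnal, the related subunit that predominates in striatum and olfactory tissue, had 207, 320.1, 252 and 221 CPM in the PS19 mice and 317, 258, 283 and 339 CPM in the Adrb1+/m;PS19 mice. Its log2 fold change was 0.26, with an unadjusted p of 0.0455 in edgeR's test. The p of Gnal was 0.129 with DESeq2, and it exceeded 0.05 in 5 of the 8 fits that left out 1 mouse. In the other direction, the log2 fold change was 0.40 without m668, with an unadjusted p of 0.000766 in edgeR's test. With no filter beyond 1 count, edgeR gave Gnal an unadjusted p of 1.22e-05 and an adjusted p of 0.00819, beside 66 of 33614 genes with an adjusted p under 0.05 in that fit. The PS19 mouse with high Gnal, m668, had the second highest striatal marker sum of the 8 mice, and the part of striatal tissue in this difference was not tested.

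Receptor kinases prepare receptors for arrestin binding. Of the 13 receptor kinases and other arrestins 12 were tested and 0 passed, with a median log2 fold change of -0.04. The smallest p was that of Sag, the visual arrestin, at 0.0897, with 1.81 and 1.18 CPM. Grk2, the kinase known for acting on beta-adrenergic receptors, had 240.5 and 228 CPM, a log2 fold change of -0.08.

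Of the 23 CREB relatives, co-activators and CREB kinases, 1 passed an unadjusted p of 0.05. Crtc3, which encodes a co-activator that enters the nucleus after cAMP signalling, had 20.2, 17.9, 17.5 and 19.6 CPM in the PS19 mice and 20.995, 21.1, 23.6 and 21.4 CPM in the Adrb1+/m;PS19 mice. The genotypes did not overlap, which held for 1 of the 90 pathway genes tested, beside 2.02% of all genes. The log2 fold change was 0.21 ± 0.08 (SE), with an unadjusted p of 0.0223 and an adjusted p of 0.9996 from edgeR's quasi-likelihood test. Its p exceeded 0.05 when m668, m665 or m660 was left out, with a largest value of 0.0779. The median of the list was 0.0047.

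The 20 textbook CREB target genes were the list with the lowest median, -0.10, with 15 lower and 5 higher in Adrb1+/m;PS19 mice, and 3 passed an unadjusted p of 0.05, all with decreased expression. Over all 17195 genes tested, 8630 were higher, 2.8% passed an unadjusted p of 0.05, and 236 of these had decreased expression. Pcsk1, the proprotein convertase that cleaves neuropeptide precursors, had 67.9, 60.0, 71.7 and 72.2 CPM in the PS19 mice and 50.7, 56.4, 59.3 and 60.4 CPM in the Adrb1+/m;PS19 mice. The genotypes overlapped by 1 mouse on each side. The log2 fold change was -0.26 ± 0.07 (SE), with an unadjusted p of 0.00317 in edgeR's test, and the p stayed under 0.05 in all 8 fits that left out 1 mouse. Bdnf, a neurotrophin, and Vgf, a neuropeptide precursor, both had log2 fold changes of -0.20 ± 0.09 (SE), with unadjusted p of 0.0383 and 0.0436. Bdnf exceeded 0.05 in 5 and Vgf in 4 of those 8 fits. Without m665 or m659, the genes of all 7 lists with an unadjusted p under 0.05 fell from 5 to 2.

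The 4 targets with the full CRE shown above did not move alike. Pcsk1 was lower, as given. Scg2, which encodes a secretogranin, had 240.3 CPM in PS19 and 267 CPM in Adrb1+/m;PS19 mice. Its log2 fold change was 0.15, with an unadjusted p of 0.0560. Sst, the somatostatin gene, had a log2 fold change of -0.09 ± 0.08 (SE), and Dusp1, an immediate early phosphatase, one of -0.12 ± 0.30 (SE). Beside the values of Pcsk1, Bdnf and Vgf, which excitatory neurons express, all 6 excitatory neuron markers had lower means in Adrb1+/m;PS19 mice, 3 of them with an unadjusted p under 0.05. Of the 6 inhibitory neuron markers 3 also had one, with Gad2 and Slc32a1 higher by a log2 fold change of 0.24 and 0.18 and Vip at -0.19. The part of these cells in the values was not tested.

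**Figure D5:**
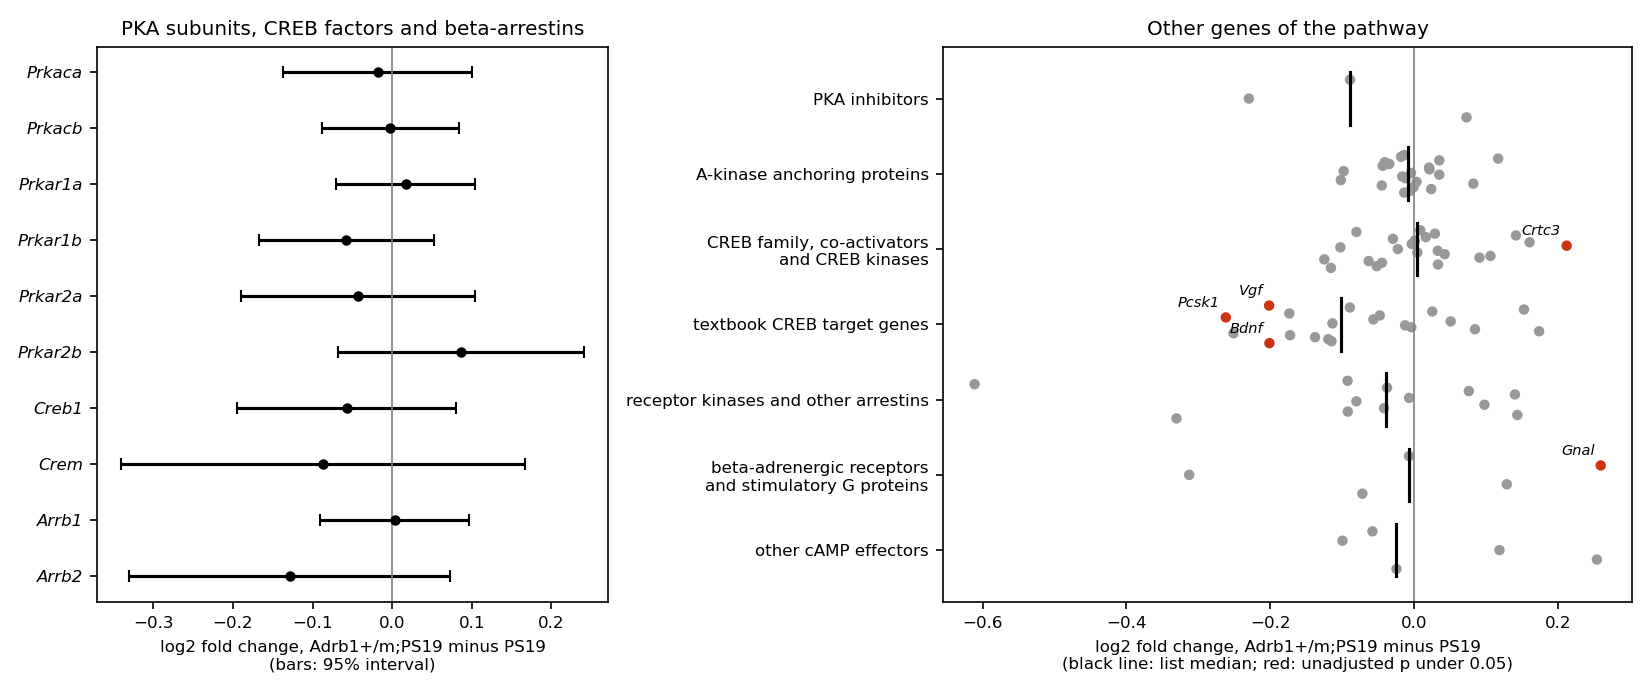
Log2 fold changes of Adrb1+/m;PS19 vs. PS19 mice (4 mice each), left for the 10 genes with their 95% intervals and right for the tested genes of the 7 pathway lists, with 1 point per gene, the list median as a black line and genes with an unadjusted p under 0.05 in red. All 10 intervals on the left include 0, and the 5 red genes on the right are Crtc3, Pcsk1, Bdnf, Vgf and Gnal.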

How the data were processed

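Total RNA of 8 cortices was sequenced as paired-end libraries. The authors aligned clean reads to GRCm38/mm10 with HISAT2 2.0.5, counted them per Ensembl gene with featureCounts 1.5.0-p3, used DESeq2 1.20.0 for their own comparison, and deposited raw counts, not normalized. Strand and multiple-mapping settings are not given in the sources used here. The deposited gene length in bases, another column of the same table, was used for TPM.

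Genes kept by filterByExpr were tested with edgeR 4.0.16 in R 4.3.3 after TMM normalization, by its 2-sided quasi-likelihood test (glmQLFTest) without covariates, and p-values were adjusted by Benjamini-Hochberg. Standard errors and 95% intervals of log2 fold changes come from that fit. Log2 CPM used a prior count of 2. Mice are named by their labels, and replicates differed by more than sampling noise (chi-square of 4.50 to 9.20 per degree of freedom). Nothing in the labels links mice to litters or batches. The fit was tested on simulated counts with known changes.

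The genes, the 7 pathway lists, the marker lists and the alternatives were chosen with earlier results of these data known. Named genes were all 10 members, every tested receptor-list gene, the pathway genes with an unadjusted p under 0.05 or else the smallest of a list, and the most alike gene of each member. Of these, 1 receptor-list gene and 1 most alike gene are not reported here. Grk2, Gad2, Slc32a1, Vip, Scg2, Sst and Dusp1 were named after their values were seen, the last 3 because their promoters hold the CRE. Alternatives were DESeq2 1.42.0, limma-voom (limma 3.58.1), DESeq2 size factors, no filter beyond 1 count, only protein-coding genes, a minimum of 10 counts in each of the mice, 1 surrogate variable (sva 3.50.0), each mouse left out, and, chosen after seeing the data, another gene length. Promoter windows are from RefSeq. Stretches of 50 bases shared between genes were counted in GENCODE M21 transcripts.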

Additional observations from a re-analysis of the deposited data

Results flagged for a closer look

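Of 46 groups of 4 mice examined for a single mouse far from the others, 1 stood out. It was Prkar2a in PS19 mice, where the log2 CPM of m659 lay apart by 0.830 of the range of the 4 mice, just over the 95% critical value of Dixon's test. Mouse m659 had 78.1 CPM and the other PS19 mice 66.0 to 67.9 CPM. Chance gives such a gap in about 1 in 20 groups.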

How the results depend on the processing

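The log2 fold changes of the 10 genes were recomputed in 7 alternatives with all 8 mice and in 8 that left out 1 mouse, 150 values in all. With all mice each gene kept its sign and none passed an unadjusted p of 0.05. Leaving out 1 mouse turned the sign 10 times, in Prkaca (-0.047 to 0.016), Prkacb (-0.012 to 0.0064), Prkar2a (-0.073 to 0.014), Crem (-0.15 to 0.041) and Arrb1 (-0.013 to 0.014), and the number of the 10 genes past the threshold ran from 0 to 1. Rescaling a library cancels in the 5 ratios and could not change them. Leaving out 1 mouse turned the log2 difference of Prkaca to Prkacb (-0.048 to 0.013) and of Crem to Creb1 (-0.078 to 0.11, the highest without m665). With no filter beyond 1 count, 1366 of all genes passed, beside 481, and 8 pathway genes, beside 5. The pathway number ran from 2 to 7 with 1 mouse left out. Without length, the log2 difference of Arrb2 over Prkar2a was -1.09 and that of Prkaca over Prkacb -1.67, and the latter was -0.73 with the longest coding transcript, an alternative chosen after seeing the data. No paired analysis was possible because mice carry unique numbers and their litters are not labelled. Crem, with 227 to 483 counts in a mouse, was the least precise of the 10 genes.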
